A study of Mus musculus with 2 samples.

Results

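Potassium channel genes were taken as all mouse genes whose symbol begins with Kcn, and 97 of them were among the 37074 gene names on the arrays. They comprised 77 genes for pore-forming or electrically silent subunits, 17 for auxiliary subunits and 3 for antisense or other RNAs, and were read by 132 probes. The RefSeq gene table used for naming lists 98 Kcn symbols, and the remaining one, Kcnmb4os2, had no probe matched to it. RNA was from the prefrontal cortex (PFC) of male C57Bl/6 N sea mice, a wild-type inbred strain with no altered allele in the labels. The control (C) group had no treatment, and the CMS group went through chronic mild stress for 4 weeks, a schedule of varied mild stressors meant to model depression. Mice were 9 to 10 weeks old at the start. In the methods, CMS mice were housed individually and C mice in groups, so that stress and housing cannot be told apart. Each group was 1 pool of RNA on 1 array. The design text gives 7 mice per pool, while the methods give 10 mice per group. A single array stands for each group, so that the groups could not be tested against each other and none of the differences has a replicate check across mice.

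Potassium channels let potassium leave or, for inward rectifiers, enter the cell, and they set the resting potential, the shape of the action potential and the firing rate of neurons. Pore-forming subunits assemble as tetramers or dimers, silent subunits modify the pores they join, and auxiliary subunits change the gating or the traffic of the complex. In the cortex, glia also depend on them, since astrocytes take up the potassium that active neurons release.

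The promoter windows of 3 members are shown because these genes had the largest differences described in the following paragraphs: Kcna10 for the probes that passed background on 1 array, and Kcnf1 and Kcnh7 for those that passed it on both. Each window is RefSeq sequence of build GRCm38.p6 from 250 bases before to 50 bases after the annotated start, written 5′ to 3′ on the strand of the gene, with CG dinucleotides in capitals.
Kcna10, chr3:107182893-107183192, plus strand: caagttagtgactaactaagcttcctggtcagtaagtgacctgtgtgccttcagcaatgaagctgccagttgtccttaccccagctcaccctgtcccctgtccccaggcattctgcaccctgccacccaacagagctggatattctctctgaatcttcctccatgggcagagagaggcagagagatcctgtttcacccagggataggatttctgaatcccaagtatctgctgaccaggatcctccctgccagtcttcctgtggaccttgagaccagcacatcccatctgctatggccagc
Kcnf1, chr12:17176839-17177138, minus strand: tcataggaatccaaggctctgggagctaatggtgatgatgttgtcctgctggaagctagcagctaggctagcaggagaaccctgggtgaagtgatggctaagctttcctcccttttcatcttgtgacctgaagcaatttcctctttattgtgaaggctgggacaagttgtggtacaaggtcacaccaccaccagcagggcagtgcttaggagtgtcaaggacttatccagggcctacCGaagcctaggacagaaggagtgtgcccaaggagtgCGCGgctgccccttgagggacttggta
Kcnh7, chr2:63184238-63184537, minus strand: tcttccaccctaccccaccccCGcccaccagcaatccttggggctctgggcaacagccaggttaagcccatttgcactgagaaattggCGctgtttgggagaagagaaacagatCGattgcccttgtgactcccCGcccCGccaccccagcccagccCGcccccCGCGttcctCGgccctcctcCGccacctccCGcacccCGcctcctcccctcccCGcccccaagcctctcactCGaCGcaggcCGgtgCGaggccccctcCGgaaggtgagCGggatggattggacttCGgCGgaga
The Kcna10 window holds 0 CG dinucleotides, the Kcnf1 window 3 and the Kcnh7 window 21, against a median of 7 over the 32851 windows of the table.

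The arrays were one-colour Agilent arrays, on which each probe gives a fluorescence intensity, and both lay on 1 slide. After scaling each array to a mean of 2500, 65.2% of the spots on the C array and 65.9% of those on the CMS array were well above background in the scanner software's own call. Cell type markers were read as well: 10 of 10 neuron markers were well above background on both arrays, with a median log2 ratio of CMS over C of -0.04. So were 5 of 5 thalamus markers and 6 of 7 striatum markers, so that these calls do not verify the PFC label. Of 12 hepatocyte markers, 12 had ratios above 1.5-fold, and their summed signal was 8935 on the C array and 80024 on the CMS array. Of 12 immediate early genes, 11 lay more than 1.5-fold below the C pool, with a median log2 ratio of -1.0. The part of these differences between the pools in the values of the potassium channel genes was not tested. PFC is a mixed tissue, so that fewer cells of a type and less RNA per cell cannot be told apart.

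Most potassium channel genes had close values on both arrays. A log2 ratio of CMS over C was obtained for 83 of the 97 genes. Among the 77 genes well above background on both arrays the log2 ratios lay between -0.38 for Kcnf1 and 0.45 for Kcnh7, with a median of -0.03 and an SD of 0.13 over genes. All 25442 gene names well above background on both arrays had the same median of -0.03 and an SD of 0.33. Within 0.2 of 0 on the log2 scale were 67 of the 77 potassium channel genes (87.0%) and 76.8% of all such gene names.

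Past the 2-fold limit, 0 of the 83 genes were higher in the CMS pool, beside 1.96% of all 27119 gene names with a ratio, and 1 was lower, Kcna10, beside 0.564% of all. At a limit of 1.5-fold, 1 gene was higher, Kcnn4, against a background of 3.66%, and 4 genes were lower, Kcna10, Kcne4, Kcnj15 and Kcnn1, against a background of 2.08%. These 5 genes passed background on 1 array only, and each of their ratios is a bound, set against the lowest signal called well above background on the other array (17.8 on the C array and 17.6 on the CMS array). Some probes missed that call with a higher signal, such as the other probe of Kcnt2 with 23.8 in CMS. A bound is therefore not a strict minimum of the difference. Kcnk5, an alkaline-sensitive leak channel, had a bound as well, with a signal of 15.7 in C and 21.5 in CMS. With normexp background correction and quantile normalization, Kcnn4 (0.15), Kcne4 (-0.18), Kcnj15 (-0.18) and Kcnn1 (-0.28) no longer passed 1.5-fold. Of the 77 genes well above background on both arrays, 0 passed the 1.5-fold limit in either direction. In all gene names of that kind 2.15% were more than 1.5-fold higher and 1.08% more than 1.5-fold lower, and 1.16% and 0.173% passed the 2-fold limit.

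**Figure D1:**
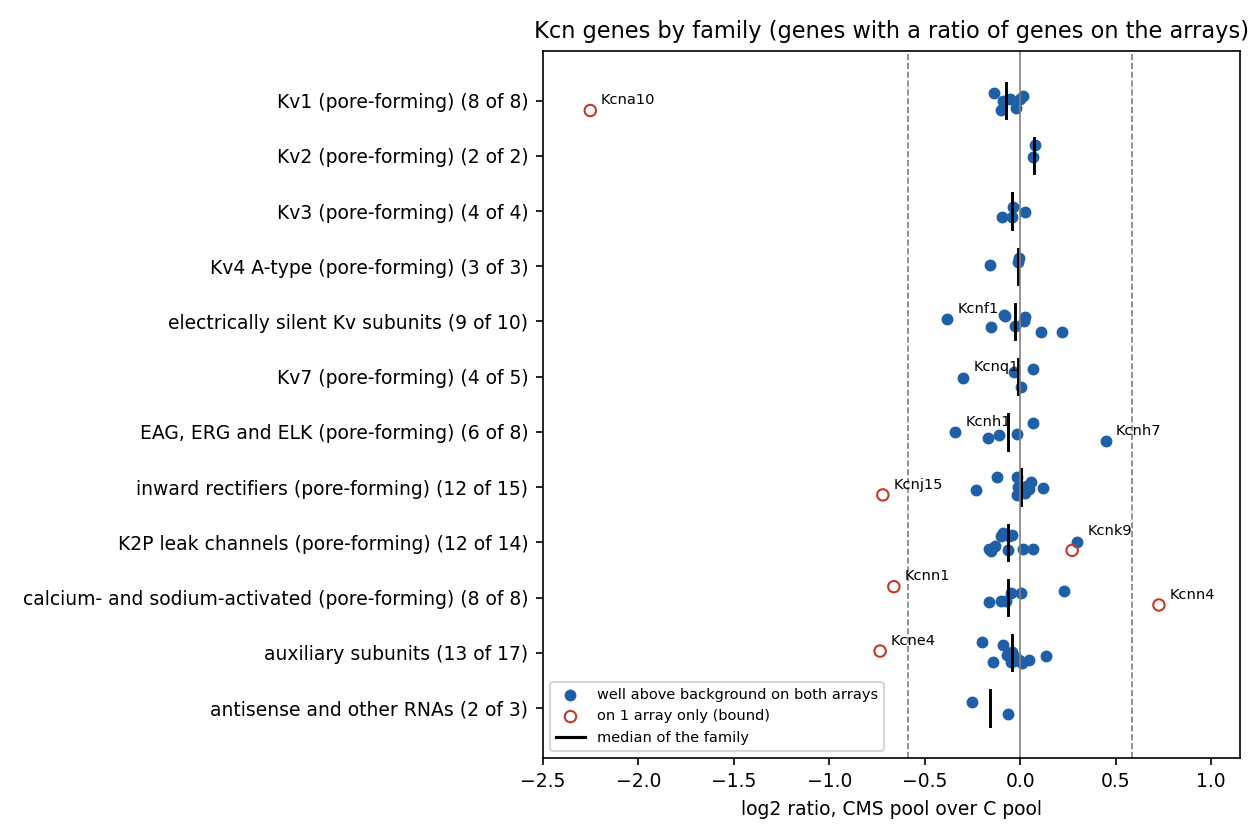
Log2 ratio of the CMS pool over the C pool (x axis) for the 83 Kcn genes with a ratio, 1 point per gene, grouped by family (y axis, with the number of genes that have a ratio), where filled points passed background on both arrays, open points on 1 array, bars are family medians and dashed lines mark 1.5-fold. The 77 filled points lie between -0.38 and 0.45, inside the dashed lines, and the 5 points outside them are open.

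The Kv1 family, which opens near the firing threshold and sits mainly on axons, had 8 genes on the arrays, and 7 of them had log2 ratios from -0.14 to 0.02. Kcna1, whose loss causes episodic ataxia and seizures, had a scaled signal of 10063 in C and 9447 in CMS, a log2 ratio of -0.09. Kcna2, its usual partner in axonal channels, had 461 in C and 419 in CMS (-0.14). Kcna4, the member that inactivates fast, had 7250 in C and 7327 in CMS (0.02). These 3 lay within 0.14 of 0, less than the scanner software's own error of the ratio, which was 0.20 or more for each Kcn gene. That error was nearly the same for most Kcn genes, with a lowest and a median value of 0.20. The SD of the log2 ratio between spots of 1 probe was smaller, 0.13.

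Kcna10 stood apart from its family. This gene, known from the inner ear and kidney and regulated by cyclic nucleotides, had a scaled signal of 83.8 on the C array and 12.6 on the CMS array, where it was not well above background. Set against the lowest signal called well above background, it was 4.76-fold lower in the CMS pool, a log2 bound of -2.25, on 1 probe and 1 spot. With normexp background correction and quantile normalization its log2 ratio was -0.86, and it no longer passed 2-fold. Its genome neighbours within 2 genes on chromosome 3 are Kcna2 and Kcna3, a lymphocyte and neuronal channel with 85.9 in C and 80.2 in CMS (-0.10). The difference at Kcna10 was therefore not shared by the other genes of the cluster. The other Kv1 cluster, Kcna1, Kcna5 and Kcna6 on chromosome 6, had log2 ratios of -0.09, -0.06 and -0.02.

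Spots printed close to the Kcna10 spot were also dimmer on the CMS array. Within 3 rows and 3 columns, 31 neighbouring spots had a ratio, of which 23 were lower in CMS and 8 higher, with a median log2 ratio of -0.19. Of the 18 neighbours with a signal under 200 on both arrays, 17 were lower, their median was -0.41, and 5 were more than 1.5-fold lower and 0 more than 1.5-fold higher. Over all 17680 spots that dim the median was -0.01, and 4.82% were more than 1.5-fold lower. The spots in the same column, at most 3 rows away, had ratios as low as -1.18, and the spot directly to the left had -1.28. The scanner software gave the Kcna10 spot a width of 19.7 in C and 28.1 in CMS, where the medians of the arrays were 27.1 and 26.9. The part of the spot's place on the array in the Kcna10 value was not tested.

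**Figure D2:**
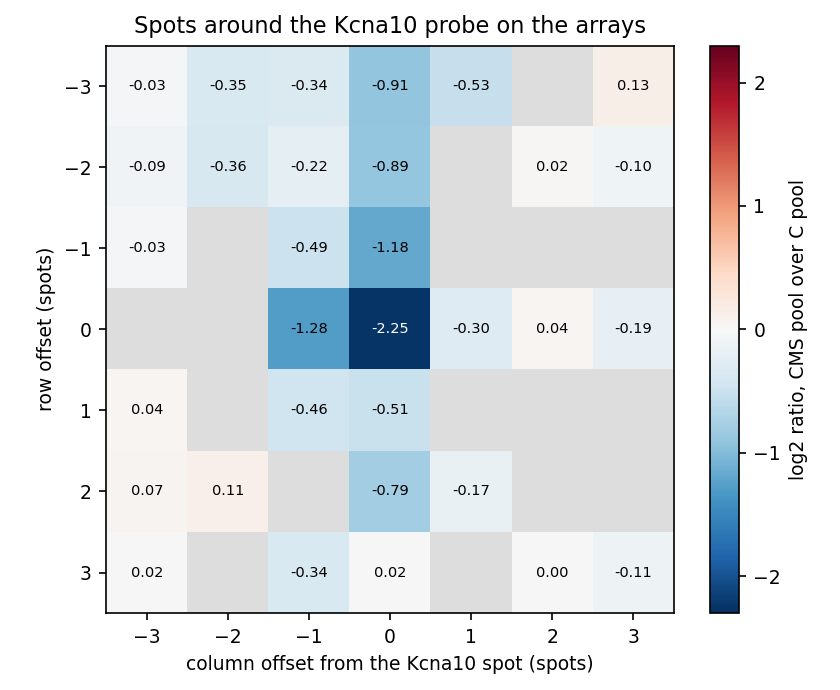
Log2 ratio of CMS over C (colour and printed value) of the Kcna10 spot and the spots within 3 rows and 3 columns of it, where the axes count rows and columns from that spot and grey cells had no ratio. The Kcna10 spot has -2.25, and 23 of the 31 neighbours with a ratio are below 0.

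Kcnb2, a Kv2 delayed rectifier of the neuronal cell body, had 386 in C and 408 in CMS (0.08). The Kv3 channels, which let interneurons fire at high rates, had log2 ratios from -0.09 for Kcnc4 to 0.03 for Kcnc2, whose signals were 1269 in C and 1292 in CMS. Kcnc1 had 2751 in C and 2669 in CMS (-0.04). Parvalbumin interneurons depend on Kv3 channels, and 0 of the 4 markers of these cells with a ratio passed 1.5-fold, with a median of -0.04.

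The Kv4 channels carry the A-type current of dendrites. Kcnd2, the main member in pyramidal neurons, had 4909 in C and 4396 in CMS (-0.16), and Kcnd3 had 7038 in C and 7017 in CMS. The auxiliary KChIP subunits of these channels are calcium-binding proteins. Kcnip2 had 561 in C and 488 in CMS (-0.20), and Kcnip4 had 6805 in C and 6171 in CMS (-0.14). Kcnip3, also known as the repressor DREAM, had 23943 in C and 23471 in CMS (-0.03). Kcnip4 had a value above 0 when its probes were averaged (0.05), where the other probe was far dimmer, with 172 in C and 203 in CMS. The DPP proteins that complete the complex had log2 ratios of -0.01 (Dpp6) and -0.04 (Dpp10).

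The electrically silent Kv subunits form no channel alone and change the properties of Kv2 channels. Of the 10 genes, 9 had a ratio and 7 lay within 0.2 of 0, beside 76.8% of all gene names well above background on both arrays. Kcnf1 had the lowest ratio of all Kcn genes above background on both arrays, with 1663 in C and 1277 in CMS, a log2 ratio of -0.38 and 1.30-fold lower. Its other probe was lower too, with 282 in C and 239 in CMS (-0.24). At the other end of the family Kcns3, known from parvalbumin interneurons, had 413 in C and 481 in CMS (0.22), and Kcns2 had 289 in C and 312 in CMS (0.11). Kcnf1 was the 1 gene of 33 with a mean signal above 1000 that lay more than 0.2 from 0. Within 0.2 of 0 were 97.0% of these 33 Kcn genes and 92.9% of all 9725 gene names with such a signal.

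The Kv7 channels carry the M-current, which neurotransmitters close through muscarinic and other receptors to raise excitability. Kcnq3, a neuronal member, had 197 in C and 207 in CMS (0.07), and Kcnq5, another, had 537 in C and 538 in CMS. Kcnq1, the slow cardiac and epithelial delayed rectifier, had 100.1 in C and 81.3 in CMS (-0.30). Kcnq1ot1, the imprinted antisense RNA of the Kcnq1 locus, had 1514 in C and 1451 in CMS (-0.06).

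The ether-a-go-go group had the widest spread of the families above background on both arrays, from -0.34 to 0.45. Kcnh7, a channel of the ERG type, had 113 in C and 153 in CMS, a log2 ratio of 0.45 and 1.36-fold higher, on 1 probe. It was the 1 gene of the 77 that lay more than 2 scanner errors from the median of all genes. The share of all gene names past this limit was not computed, so the count has no background to be set against. With normexp background correction and quantile normalization the log2 ratio of Kcnh7 was 0.29. Kcnh1, the founding EAG channel, had 297 in C and 234 in CMS (-0.34), and Kcnh4, an ELK channel, had 1642 in C and 1460 in CMS (-0.17). Kcnh2, the ERG channel of the heart and of some neurons, had 349 in C and 366 in CMS (0.07). The ERG channels Kcnh7 and Kcnh2 thus lay above 0 and the EAG channel Kcnh1 below it. Kcnh3, an ELK channel of the forebrain, had 24667 in C and 22842 in CMS (-0.11).

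The inward rectifiers lay close to 0, with 10 of 11 genes within 0.2 and a median of 0.02 among those above background on both arrays. Of all gene names of that kind 76.8% lay within 0.2. Kcnj10, the astrocyte channel that clears potassium, had 10317 in C and 10193 in CMS (-0.02), and Kcnj16, which joins it, had 2162 in C and 2231 in CMS (0.05). The 7 astrocyte markers had a median of 0.03 and none passed 1.5-fold. Among the G protein-gated members, which carry slow inhibition, Kcnj3 had 298 in C and 310 in CMS (0.06), Kcnj6 had 187 in C and 186 in CMS (-0.01), and Kcnj9 had 2376 in C and 2419 in CMS (0.03). Kcnj4, a strong rectifier of forebrain neurons, had 27241 in C and 26948 in CMS (-0.02). Kcnj11, the pore of the ATP-sensitive channel, had 399 in C and 432 in CMS (0.12), while its sulfonylurea receptor Abcc8 had 5208 in C and 4391 in CMS (-0.25). Kcnj14 had the lowest ratio of the family among genes above background on both arrays, with 49.0 in C and 41.7 in CMS (-0.23).

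Kcnj15, an inward rectifier best known from epithelia, was the member whose probes disagreed most. One probe had 29.0 in C and 17.3 in CMS, a bound of 1.65-fold lower in CMS. The other had 3.90 in C and 19.6 in CMS, a bound of 0.14 in the other direction. Each probe passed background on 1 array, so the direction at this gene depended on the probe.

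The K2P leak channels set the resting potential and respond to volatile anaesthetics, pH or stretch. Kcnk1, a weakly conducting member, had 2870 in C and 2788 in CMS (-0.04), Kcnk2, which responds to stretch and lipids, had 158 in C and 147 in CMS (-0.10), and Kcnk3, an acid-sensitive member, had 790 in C and 744 in CMS (-0.09). Kcnk9, the close relative of Kcnk3, lay on the other side of 0, with 71.0 in C and 87.2 in CMS (0.30). It was the 1 gene of the 11 above background on both arrays that lay more than 0.2 from 0. Of all gene names above background on both arrays 76.8% lay within 0.2. The scanner error of Kcnk9 was 0.24, so that it lay within 2 scanner errors. With normexp and quantile normalization its log2 ratio was 0.10. Kcnk13, the leak channel of microglia, had 383 in C and 342 in CMS (-0.16). The 6 microglia markers had a median of 0.06, and none passed 1.5-fold. Kcnk16 had 103 in C and 109 in CMS (0.07).

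Among the calcium- and sodium-activated channels the strong probes were again close on both arrays. Kcnma1, the BK channel, had 5123 in C and 4949 in CMS (-0.05), and its neuronal auxiliary subunit Kcnmb4 had 21714 in C and 21220 in CMS (-0.03). Kcnt1, a sodium-activated channel, had 2355 in C and 2364 in CMS, whereas its paralogue Kcnt2 had 169 in C and 199 in CMS (0.23). The SK channels carry the afterhyperpolarization that follows spikes. Kcnn2 had 1769 in C and 1679 in CMS (-0.08), and Kcnn3 had 138 in C and 123 in CMS (-0.17).

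Kcnn1 and Kcnn4 were dim and passed background on 1 array each. Kcnn1, an SK channel of neurons, had 27.8 in C and 4.54 in CMS, a bound of 1.58-fold lower in CMS. Kcnn4, the intermediate-conductance channel of red cells, lymphocytes and microglia, had 12.1 in C and 29.5 in CMS, a bound of 1.66-fold higher in CMS. The 3 erythroid markers with a ratio, of 6 listed, were also higher in the CMS pool, with log2 ratios of 0.41 for Hba-a1, 0.49 for Alas2 and 0.62 for Slc4a1. The summed signal of the 5 markers on the arrays, those below background included, was 19465 in C and 25824 in CMS. Their part in the Kcnn4 value was not tested. The Kcnn1 spot had a width of 20.3 in C and 30.0 in CMS, while its 30 neighbouring spots with a ratio had a median of -0.04.

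**Figure D3:**
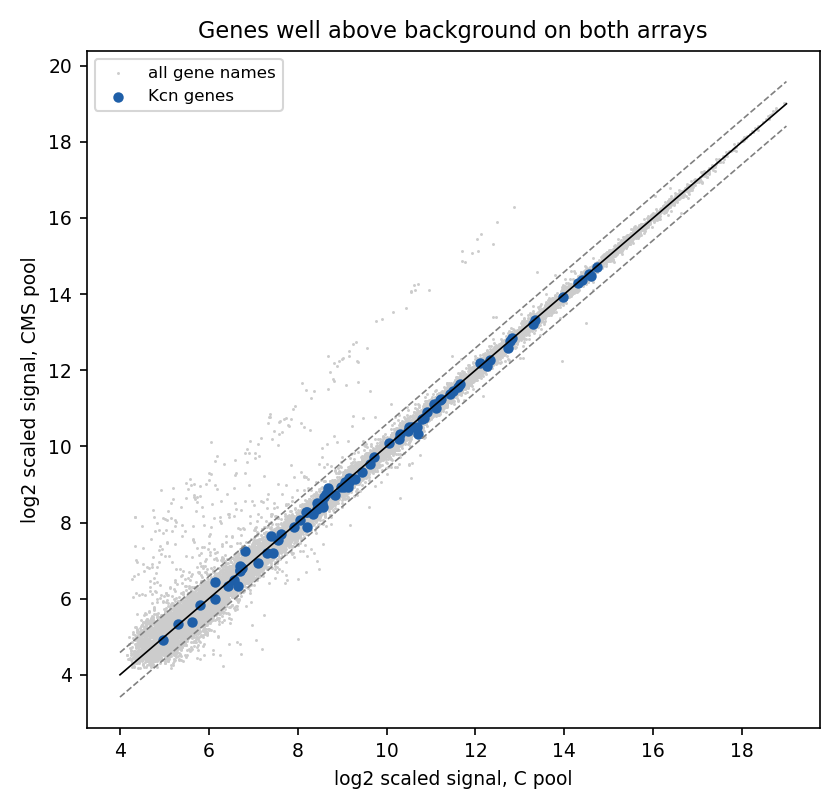
Log2 scaled signal in the C pool (x axis) and the CMS pool (y axis) of genes above background on both arrays, 1 point per gene, with the 77 Kcn genes in blue, all 25442 gene names in grey, a solid line of equal signal and dashed lines at 1.5-fold. The blue points all lie between the dashed lines, while 2.15% of the grey points lie above them and 1.08% below.

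The other auxiliary subunits gave few differences. Kcnab1 and Kcnab2, the beta subunits of Kv1 channels, had 3214 in C and 3200 in CMS (-0.01), and 105 in C and 106 in CMS (0.01). Kcnip1 had 343 in C and 328 in CMS (-0.07). Kcnrg, which interferes with the assembly of Kv channels, had 105 in C and 115 in CMS (0.14). Its other probe passed background in C only, with 21.2 in C and 17.5 in CMS, a bound of -0.27. Kcne4, a single-pass subunit that inhibits some Kv channels, had 29.3 in C and 17.4 in CMS, a bound of 1.66-fold lower in CMS. Its other probe was not well above background on either array. Among the RNAs that encode no channel, Kcnd3os, antisense to Kcnd3, had 175 in C and 147 in CMS (-0.25), while Kcnd3 itself had close values on both arrays.

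For 14 genes neither array gave a signal well above background, and no ratio was formed, among them Kcnv2, Kcnh6, Kcnh8, Kcnj1, Kcnj2, Kcnj5, Kcnk7, Kcnk18, Kcne1, Kcne2, Kcnmb1, Kcnmb3 and Kcnmb4os1. Several of them are best known from other organs, such as Kcnj1 from the kidney and Kcnmb1 from smooth muscle.

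Spots of 1 probe gave the error within an array. Over 342 probes with several spots, the SD of the log2 ratio between spots was 0.13. Kcnip1 had 343 ± 17.9 (SD, n = 10 spots) in C and 328 ± 24.7 (n = 10) in CMS, and its spots had log2 ratios from -0.26 to 0.11. Kcnn2 had 1769 ± 85.9 (n = 10) in C and 1679 ± 86.4 (n = 10) in CMS. Kcnj6 had 187 ± 11.1 (n = 10) in C and 186 ± 8.83 (n = 8) in CMS. The differences between the arrays in these 3 genes were smaller than the SD of their spots in Kcnip1 and Kcnj6, and slightly larger in Kcnn2. These SDs describe single spots, and a mean over the spots of a probe varies less, so that they do not give the error of the means. These errors cover the array only, not mice.

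Different probes of a gene showed how far the choice of probe moved a value. Both probes passed background on both arrays in 24 pairs from 22 genes, with a median difference of 0.13 between their log2 ratios, and 19 pairs lay within 0.2 of each other. Kcnip3 (-0.03 for the representative probe and -0.42 for the other), Kcne3 (-0.05 and -0.43), Kcnip4 (-0.14 and 0.23) and Kcnh4 (-0.17 and 0.20) were among the pairs farthest apart. Kcnip4 and Kcnh4 thus had probes on both sides of 0, as did other genes with pairs closer together, among them Kcnq1ot1 (-0.06 and 0.11). The other probe was far dimmer in Kcnip3 (72.5 in C and 54.2 in CMS), Kcnip4 (172 and 203) and Kcnh4 (22.1 and 25.3). In Kcne3 both probes were dim, and the other had 30.7 in C and 22.8 in CMS. Kcnma1 kept within 0.08 of 0 in 3 probes.

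**Figure D4:**
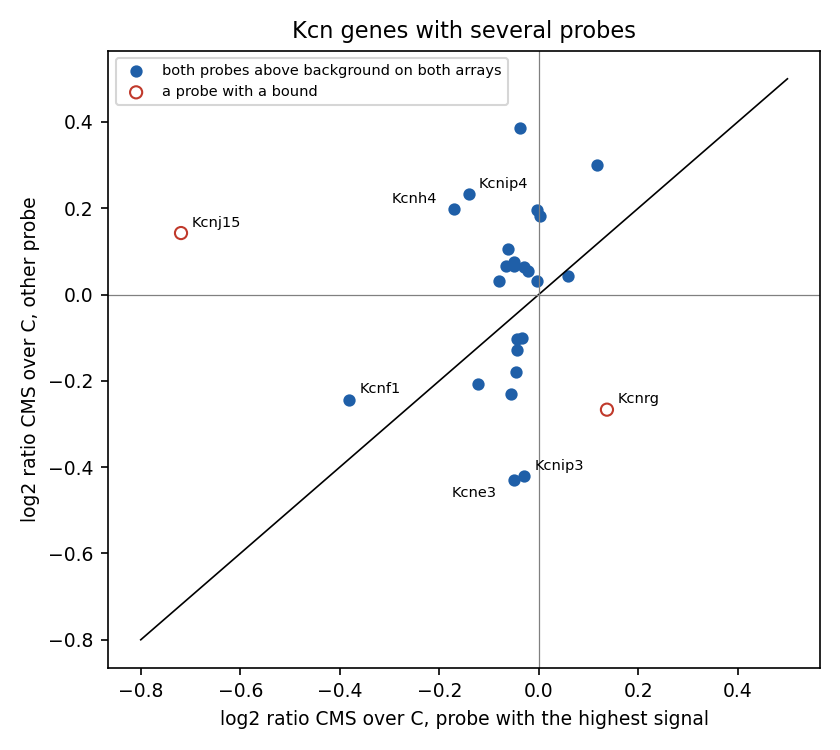
Log2 ratio of CMS over C of the representative probe (x axis) and of another probe of the same Kcn gene (y axis), 1 point per pair, with the line of equal ratios; open points hold a bound. Of the 24 pairs in which both probes passed background on both arrays, 19 differ by less than 0.2, and Kcnj15 is the 1 pair more than 1.5-fold apart.

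The spread of the potassium channel genes narrowed as the signal rose. With a mean signal below 100 the SD of the log2 ratio was 0.17 over 9 Kcn genes and 0.43 over 5945 gene names. Between 100 and 1000 it was 0.15 over 35 Kcn genes and 0.35 over 9772 names, and above 1000 it was 0.08 over 33 Kcn genes and 0.24 over 9725 names. Above 1000, 32 of the 33 Kcn genes (97.0%) and 92.9% of all names lay within 0.2 of 0. The SD was lower in the Kcn genes in each range, where all names include the hepatocyte and immediate early genes, and no test of this difference was made.

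**Figure D5:**
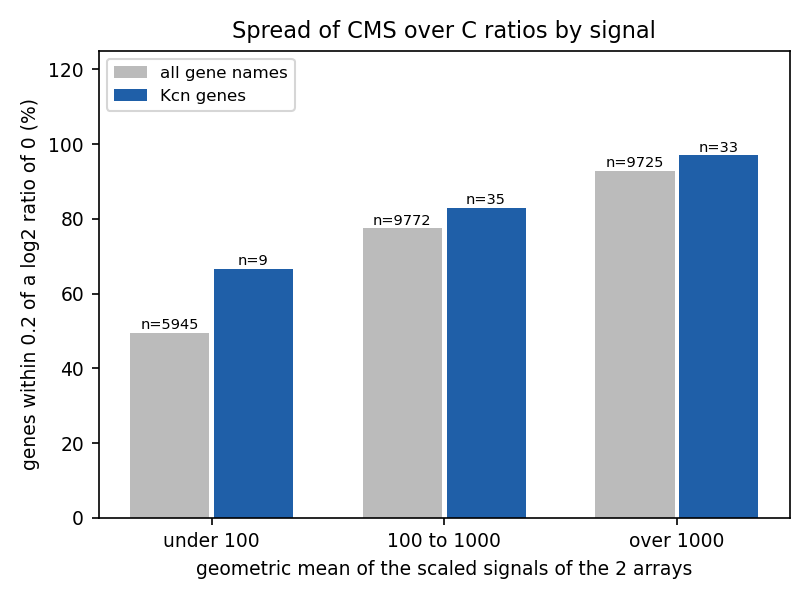
Share of genes within 0.2 of a log2 ratio of 0 (y axis, percent) by range of the geometric mean of the scaled signals of both arrays (x axis), for all gene names (grey bars) and Kcn genes (blue bars) above background on both arrays, with the number of genes on each bar. The share of Kcn genes is 66.7% below 100, 82.9% from 100 to 1000 and 97.0% above 1000, beside 49.4%, 77.5% and 92.9% of all names.

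Genes that work with potassium channels were taken from 3 lists. Of 19 auxiliary and scaffold partners, 17 had a ratio, with a median of -0.04, and 0 passed 1.5-fold. The lowest was Lrrc55, a gamma subunit of BK channels, with 612 in C and 496 in CMS (-0.30), and the highest was Nedd4l, a ubiquitin ligase that removes Kv7 and sodium channels from the membrane, with 5625 in C and 6441 in CMS (0.20). Of 4 HCN channels, which carry the hyperpolarization-activated current, 3 had a ratio and 0 passed 1.5-fold, with log2 ratios of -0.14 for Hcn2 and -0.20 for Hcn3. Of 10 potassium pumps and cotransporters, 9 had a ratio, with a median of -0.06. Slc12a7, a potassium-chloride cotransporter, was the 1 past 1.5-fold, with 148 in C and 96.0 in CMS (-0.63), while its neuronal relative Slc12a5 had a log2 ratio of -0.01.

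Promoter windows were matched to 71 of the 97 genes, in 96 windows. Motifs were searched on both strands as descriptions of sequence. The cyclic AMP response element TGACGTCA, which immediate early genes often carry, was in 0 of the 96 windows and in 1.79% of all windows, and its core TGACG was in 19 (19.8%) and in 20.8% of all; each full element also holds the core. The glucocorticoid response element GNACANNNTGTNC was in 1 window, that of Kcna5, as GTACAACCTGTTC 59 bases before the start, and in 0.475% of all. The HNF4 motif CAAAGTCCA was in 0 of the 96 windows and in 0.475% of all. Taking the window richest in CG dinucleotides for each gene, the median was 12 over the 71 Kcn genes and 8 over all 27025 genes of the table. Among the Kcn genes it was 17 in the 55 with a ratio above background on both arrays, 7.5 in the 6 with a bound and 9.5 in the 10 with no ratio. The genes of the table were not split by signal in this way, so the 17 has no like value beside it.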

How the data were processed

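Total RNA pools of the C and CMS groups were labelled with Cy3 and hybridized to 1 one-colour Agilent array each. The authors deposited the intensity of each spot as Agilent Feature Extraction 10.10.1.1 gave it, with background already subtracted and the software's flags and error. A deposited table of processed values, a linear intensity with column medians of 148.91 (C) and 152.67 (CMS), was the scanner signal multiplied by 1 factor per array (1.80 and 2.05). It was used as an alternative. The genome build of the probes is not given in the sources used here.

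Control spots and 130 (C) and 133 (CMS) outlier spots were left out, and no spot was saturated (0). Signals were scaled to a mean of 2500 per array, as in the methods, from means of 2929 and 2597. Spots of a probe were averaged. Probes were named through their RefSeq accession where the RefSeq mouse gene table (GRCm38.p6) held it, and otherwise kept that identifier as their name. The representative probe of a gene was the one with the highest geometric mean signal among those passing background on at least 1 array. The software's call had to hold for a share of at least 0.5 of a probe's spots for it to pass background. Where it passed on 1 array only, the other array's value was replaced by the lowest signal well above background there (17.8 in C, 17.6 in CMS) if that was higher, and the ratio is a bound. Limits of 2-fold, which the study used, and 1.5-fold were applied. The 1 array per group allowed no test, so precision is limited by the number of arrays. The scanner error of a ratio combines the software's error of both signals. No column of sample values was left unmapped (0).

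Named genes were those past 1.5-fold, the 10 highest and 10 lowest ratios above background on both arrays, a list of well-known cortical members, genes whose probes disagreed by over 1.5-fold, and antisense RNAs. A few further members are named for their role or cluster and were chosen after their values were seen. Members and lists were chosen with earlier results of these data known. Cell type markers without a line of their own in the results had medians of -0.15 (oligodendrocyte), 0.02 (endothelium and pericyte), -0.17 (striatum), -0.02 (thalamus) and 0.10 (choroid plexus). Alternatives covered scaling, normexp background correction with an offset of 50 (limma 3.58.1 in R 4.3.3), quantile normalization, the background filter and bound, outlier spots and the mean of all probes. The calculation was tested on simulated data with changes planted in brighter genes only, so that the test does not cover dim genes with a bound. Python 3.11.15 with numpy 2.4.6, pandas 2.3.3, scipy 1.17.1 and matplotlib 3.10.9 was used. Values of a few genes are not reported here.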

Additional observations from a re-analysis of the deposited data

How the results depend on the processing

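The median log2 ratio of the potassium channel genes, -0.04, was -0.018 with arrays scaled to the 75th percentile, -0.070 scaled to the median, -0.016 with normexp and quantile normalization, -0.016 with the mean of all probes and -0.21 without scaling, where the median of all gene names moved by -0.17 to -0.20. Under all 11 alternatives it stayed within 0.02 of the median of all gene names. The counts rested on dim probes. With normexp, 0 genes were more than 2-fold lower, 0 more than 1.5-fold higher and 1 (Kcna10, -0.86) more than 1.5-fold lower. With genes well above background on both arrays, these counts were 0, 0 and 0. Without scaling, 0 were more than 1.5-fold higher. Without the lowest signal as a bound, 1 was more than 2-fold higher and 2 more than 2-fold lower. With no filter, 2 were more than 2-fold higher, 5 more than 2-fold lower, 2 more than 1.5-fold higher and 8 more than 1.5-fold lower. The filter changes which genes are counted, and the normexp offset draws dim ratios towards 0. The cause of the other moves was not tested. Kcnf1 lay between -0.55 and -0.31 and Kcnh7 between 0.27 and 0.47. Leaving out the setting without scaling, which moved all genes alike, 20 of 55 named genes changed sign under at least 1 alternative. The value farthest from 0 among these 20 was -0.17 (Kcnh4), and 0 of the genes past 1.5-fold changed sign. Those past 1.5-fold had passed background only on the array where they were higher. Their sign was thus largely fixed in advance and does not show that they are stable. The setting that required both arrays left them out. With the mean of all probes 3 were more than 1.5-fold lower, and Kcnj15 had -0.29.

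No paired analysis was possible because each group has 1 array, which also leaves no replicate to leave out. The slide as a block was not run, since both arrays share it. The median spot was 3.64 (C) and 3.76 (CMS) times the lowest signal well above background, which limits what dim genes such as Kcnn1, Kcnn4, Kcne4 and Kcnj15 can show.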
